A study of Bos taurus with 2 samples.

Results

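The protamines PRM1, PRM2 and PRM3, the transition proteins TNP1 and TNP2 and the spermatid linker histone H1FNT (current symbol H1-7) were examined in sperm RNA. The probes examined were all those, controls left out, that carry 1 of these 6 gene names in the scanner tables of a bovine oligonucleotide array. This rule gave 14 probes with 1 spot each, out of 51280 probes and 32429 gene names. Total RNA came from spermatozoa of HF crossbred breeding bulls of high fertility and of low fertility, with 1 array per group. More than 1 bull is implied for each array by the plural in the labels, which give neither their number nor their age. No bull was labelled as treated or as carrying a changed gene. With 1 array per group no difference has a replicate check, no p-value is given, and every difference describes these 2 arrays.

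In round spermatids DNA is still wound on histones. As the nucleus elongates, histone variants and then the transition proteins take their place, and the small arginine-rich protamines follow and pack the DNA of the sperm head tightly. The genes of PRM1, PRM2, PRM3 and TNP2 form a cluster that is transcribed in round spermatids, and their mRNA is stored and translated later, when transcription has stopped. Ejaculated sperm make little or no new RNA, so sperm mRNA is mostly what is left from spermatids. Bull sperm chromatin is packed mainly by PRM1, and PRM2 protein is scarce in cattle.

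By the scanner software's flag 33.2% of spots in the high-fertile sample and 32.9% in the low-fertile sample were well above background. A probe is called measured here where that flag was set on both arrays, which held for 14154 probes (27.6%). Of 20 genes known from late spermatids and sperm 8 were measured, among them ODF1, OAZ3 and GAPDHS, while AKAP4, SMCP, LDHC, PGK2 and CRISP2 were below that limit in both. The summed signal of the 8 was 1110 and 1060, in the order high-fertile and low-fertile. After scaling 6 of the 8 were higher in the high-fertile array and 2 were lower, PLCZ1 at -0.89 and ODF2 at -0.1 on the log2 scale. ACTL7B, an actin-like protein of spermatids named here after its value was seen, was the 1 gene of the 8 at least 2-fold apart (12.5%, at 1.19), against 4.32% of all measured genes. Of 10 genes of spermatogonia and meiosis 0 were measured, though UCHL1 was well above background on the low-fertile array. Of 12 leukocyte genes 8 were measured, PTPRC among them, with 4 higher and 4 lower and a summed signal of 8070 and 13400 before scaling. Most of that sum came from PTPRC (2300 and 5090) and LYZ (4590 and 6990). Their scaled differences were -0.51 (SD 0.46, n = 2 probes) and 0.34 (SD 0.88, n = 2 probes). Of 7 epithelial genes 4 were measured (summed signal 546 and 568), of 11 genes of testis somatic cells 5 (799 and 1080), of 11 genes of epididymis and accessory glands 2 (78.2 and 136), and of 7 erythroid genes 2 (163 and 201). Well above background on 1 array only were ITGAM and WT1 (low-fertile) and GATA4 and CLU (high-fertile). None of the measured genes of these other cell types differed 2-fold after scaling, where 4.32% of all measured genes did. The part of such cells in the differences below was not tested. In RNA from a whole sample, fewer cells of a type and less RNA per cell cannot be told apart.

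The probes are shown first, since the result for each gene depends on which of its probes gave a signal. All were 60 bases long, and all sequences are those in the scanner tables, written in the sense of the mRNA. The 2 probes named TNP2 overlap by 12 bases, printed in capitals, so that they read neighbouring stretches of one transcript. They are shown whole because only the second was measured.
TNP2 probe A_73_P044061: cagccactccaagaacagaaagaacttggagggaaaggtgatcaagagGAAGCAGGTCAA
TNP2 probe A_73_106629: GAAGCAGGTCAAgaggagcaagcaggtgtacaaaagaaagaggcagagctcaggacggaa

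The 2 probes of PRM3 stand at one position and differ at 4 bases, which is why they are set side by side. Counted from the 5′ end of the first probe the differences are G5T, G8C, G26T and A46T, with the base of the first probe first. Bases 1 to 30 are shown, with the differing bases in capitals.
PRM3 probe A_73_P033486: tgtcGccGttcctgagaggaggagaGcttt
PRM3 probe A_73_P157312: tgtcTccCttcctgagaggaggagaTcttt

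Both PRM1 probes were measured, and they share 44 bases. Another probe for the same transcript was found through its accession after the values were seen. It carries an Ensembl transcript as its name and so falls outside the rule. It shares 51 bases with the second PRM1 probe and 36 with the first, and the 3 probes together cover 84 bases. The last 30 bases of the second probe are shown with the matching stretch of that probe, which differs by G60A (counted from the 5′ end of the second probe). Capitals mark AATAAA, the usual polyadenylation signal. The first PRM1 probe ends 14 bases into this stretch.
PRM1 probe A_73_P031221: cgaacaatgccacctgtcAATAAAtgttgg
PRM1 probe A_73_P058211: cgaacaatgccacctgtcAATAAAtgttga

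The 2 probes of H1FNT overlap by 25 bases with 1 difference, A23G (second probe first, counted from its 5′ end). The longest run they share, 22 bases, is in capitals. They are shown because both were measured and gave like values.
H1FNT probe A_73_113594: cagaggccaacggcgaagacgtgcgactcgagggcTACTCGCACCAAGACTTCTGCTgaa
H1FNT probe A_73_P487748: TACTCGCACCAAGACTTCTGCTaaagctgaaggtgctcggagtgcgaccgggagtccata

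For TNP1 the probe that was measured and the transcript probe that ends past the polyadenylation signal are shown in part, bases 1 to 30 of the former and 31 to 60 of the latter, with AATAAA in capitals. They come from different places, as given below.
TNP1 probe A_73_P154222: tatatattacccaactgtaacaaagcctag
TNP1 probe A_73_P095031: ctaacatctcAATAAAaattttgaaagctg

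The comparison asked whether sperm of high-fertile and of low-fertile bulls differ in the transcripts that code for the packing of sperm DNA. PRM1, the main protamine of bull sperm, had a signal 2.14-fold lower with the high-fertile sample, and TNP2, which binds spermatid DNA before the protamines, was 2.34-fold higher there. PRM3, TNP1 and H1FNT differed by 1.30-fold or less, and PRM2 was not measured. The value of TNP1 came from a probe drawn from an expressed sequence tag, and the probes of its annotated transcript were not measured. Of 5 measured genes 1 was thus past 2-fold upward and 1 downward. Over all 11590 measured genes 4.32% were at least 2-fold apart, 1.88% in the higher and 2.44% in the lower direction. Of the 7 measured probes 1 was past 2-fold upward and 1 downward, against 4.94% of all measured probes in either direction, 2.14% upward and 2.8% downward. The median log2 difference was -0.03 over the 5 genes, which is the value of TNP1, and 0.00 over all genes. The genes of this family lay on both sides of it. Differences are high-fertile minus low-fertile, on the log2 scale, after each array was divided by the 75th percentile of its measured probes (148.6 and 186.3 signal units), which adds 0.33 to the raw log2 difference.

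**Figure D1:**
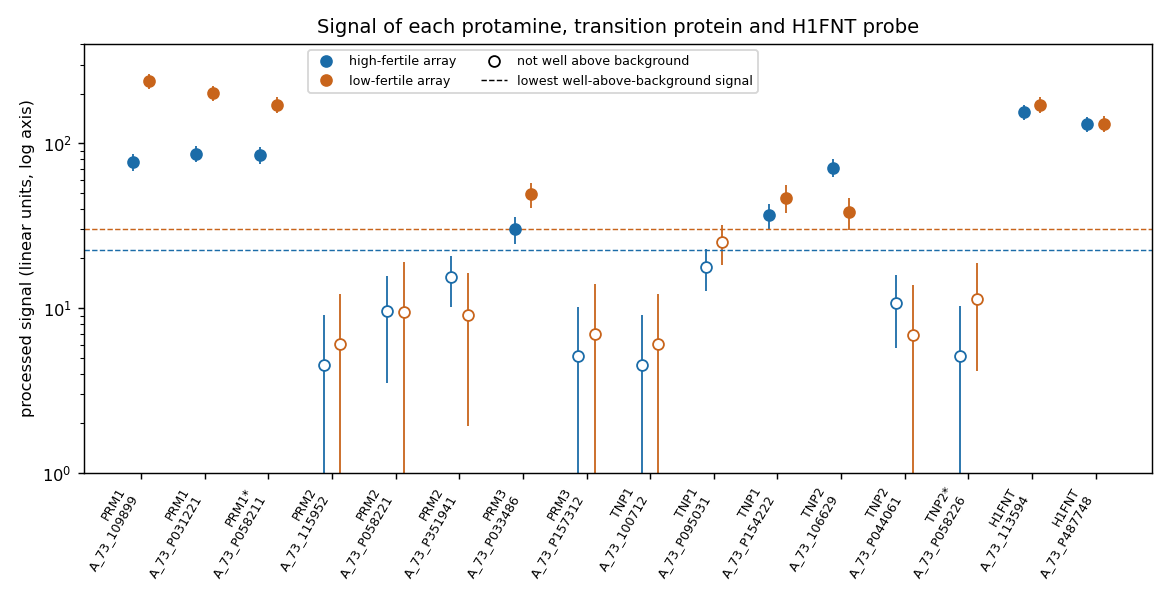
Processed signal (linear units on a log axis) of each probe on the high-fertile (blue) and low-fertile (orange) array before scaling, with the scanner software's error estimate as the bar, which runs off the lower edge where it is as large as the signal. Filled points are well above background, dashed lines mark the lowest such signal on each array (22.5 and 30.3), and an asterisk marks the 2 probes found by accession. The 3 PRM1 probes lie between 76.9 and 86.5 on the high-fertile array and between 171 and 237 on the low-fertile array, while the measured TNP2 probe is the other way round.

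TNP2 rested on 1 of its 2 probes, A_73_106629. Its signal was 71.1 ± 8.80 in the high-fertile against 38.2 ± 8.44 in the low-fertile sample, where ± is the error that the scanner software estimated for the spot. The signal was thus higher in the high-fertile array already before scaling, by 0.90 on the log2 scale. After scaling the difference was 1.22, with an error of 0.37 from the spot errors of both arrays. It fell under 2-fold with normexp background correction (0.64) and with scaling on spike-in controls (0.63), and TNP2 was not measured under the stricter limit on signal given with H1FNT. Of all measured probes 1.04% were as high or higher. The low-fertile signal was not far over 30.3, the dimmest spot there to carry the flag. In brightness the probe stood at the 86.4th percentile of all probes in the high-fertile and at the 70.6th in the low-fertile sample, a comparison that no scaling factor can move.

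The overlapping TNP2 probe, A_73_P044061, had signals of 10.8 ± 5.11 and 6.89 ± 6.92, neither well above background, so it gives no difference. On the low-fertile array that value is a substitute which the scanner software enters for a spot not distinguishable from background. A further probe, A_73_P058226, lists a TNP2 accession under an Ensembl transcript name, and had signals of 5.09 ± 5.13 and 11.4 ± 7.26, also not well above background. Of the 3 probes that list a TNP2 accession, 1 therefore carried the difference. This split is common on the array. Among probe pairs of one gene name that share at least 12 bases and have at least 1 measured probe, 37.0% have the other not measured. The share depends on the overlap, with 29.6% for pairs that share at least 40 bases and 76.2% for those that share fewer than 12. The TNP2 pair, at 12 bases, stands at the lower limit of its class.

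TNP1, the other transition protein, differed by -0.03 with an error of 0.38, far less than the error, and by -0.63 with spike-in scaling. Its measured probe, A_73_P154222, had 36.5 ± 6.56 in the high-fertile against 46.8 ± 9.13 in the low-fertile sample, both close to the lowest well-above-background signals of 22.5 and 30.3. It stood at the 76.3rd and 75.3rd percentile of brightness. This probe was drawn from an expressed sequence tag (EV607692) and lists no RefSeq transcript of TNP1. On build Btau_3.1 it lies at chr2:109106799-109106858 in reverse orientation, with 601 bases between it and the nearest probe of the TNP1 transcript NM_174199, at chr2:109106138-109106197, and on the 5′ side of it.

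Neither probe of the TNP1 transcript itself was well above background. A_73_P095031, the one that reaches past the polyadenylation signal, had 17.8 ± 5.03 and 25.1 ± 6.84, which the scanner software called above background but not well above it. A_73_100712 shares 32 bases with it and had 4.51 ± 4.54 and 6.07 ± 6.09, both substitute values. The value of TNP1 is therefore that of the tag probe, and the annotated transcript was not measured.

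PRM1 was lower in the high-fertile array with every probe. Probe A_73_109899 had 76.9 ± 9.32 in the high-fertile against 237 ± 24.9 in the low-fertile sample, a log2 difference of -1.30 with an error of 0.23, or 2.46-fold. Probe A_73_P031221 had 86.5 ± 9.96 and 202 ± 21.3, a difference of -0.90 with an error of 0.23, or 1.86-fold. Both probes were thus lower on the high-fertile array by more than the spot errors, and only the former was past 2-fold on its own.

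The mean over both PRM1 probes was -1.10 (SD 0.28, n = 2 probes). Of all measured genes 1.77% were as low or lower. The probes share most of their bases, so their SD measures repeat spots on one stretch of mRNA, not separate parts of the transcript. In brightness they fell from the 94.6th and 93.7th percentile on the low-fertile array to the 87.3rd and 88.5th on the high-fertile array.

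The PRM1 probe found by accession, A_73_P058211, had 84.9 ± 9.86 and 171 ± 18.4, a difference of -0.68 with an error of 0.23, or 1.60-fold. With it the mean of PRM1 became -0.96 (SD 0.31, n = 3 probes), or 1.94-fold, just short of 2-fold. The 3 signals spread from 76.9 to 86.5 on the high-fertile array and from 171 to 237 on the low-fertile array. The call of PRM1 at 2-fold therefore depends on which probes are counted, while its direction was the same in 3 of 3. It also ended with normexp background correction (-0.67), with scaling on the 75th percentile of every probe (-0.995) and with the deposited matrix values (-0.99), and PRM1 was not measured under the stricter limit on signal given with H1FNT.

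PRM2, the second protamine, had 3 probes and none was well above background. A_73_P351941, printed because it has no stop codon in any of its 3 sense frames, had 15.5 ± 5.30 in the high-fertile against 9.07 ± 7.15 in the low-fertile sample. The scanner software called it above background on both arrays, but not well above, and the 2 values overlap within their errors.
PRM2 probe A_73_P351941: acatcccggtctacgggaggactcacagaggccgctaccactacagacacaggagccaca

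The other PRM2 probes were dim as well. A_73_P058221 had 9.62 ± 6.09 and 9.50 ± 9.54, and A_73_115952, which comes from an older cDNA entry (X16559) and has no position on the build, had 4.51 ± 4.52 and 6.07 ± 6.09. No difference between the arrays can be given for PRM2, and a low level is not an absent transcript at this signal.

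PRM3, an acidic protein encoded within the cluster, was measured with the probe of its RefSeq transcript NM_001078053. A_73_P033486 had 30 ± 5.71 in the high-fertile against 48.9 ± 8.26 in the low-fertile sample. The scaled difference was -0.38 with an error of 0.37, about as large as the error, and 17.8% of measured probes were as low or lower. The probe with 4 differing bases, A_73_P157312, had 5.08 ± 5.10 and 6.95 ± 6.98, substitute values on both arrays. PRM3 stood at -0.07 with normexp and at -0.97 with spike-in scaling.

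H1FNT, a linker histone made in spermatids and needed in the mouse for normal elongation of the sperm nucleus, had like levels on both arrays. A_73_113594 had 155 ± 16.3 and 171 ± 18.4, and A_73_P487748 had 131 ± 13.9 and 131 ± 14.5. The scaled differences were 0.19 and 0.32, each with an error of 0.22, and the mean was 0.25 (SD 0.10, n = 2 probes), or 1.19-fold. H1FNT was the only gene of the 6 with probes above 4 times the lowest well-above-background signal on both arrays (90.1 and 121), the stricter limit that was tried. Its difference turned to -0.34 when the arrays were scaled on spike-in controls.

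**Figure D2:**
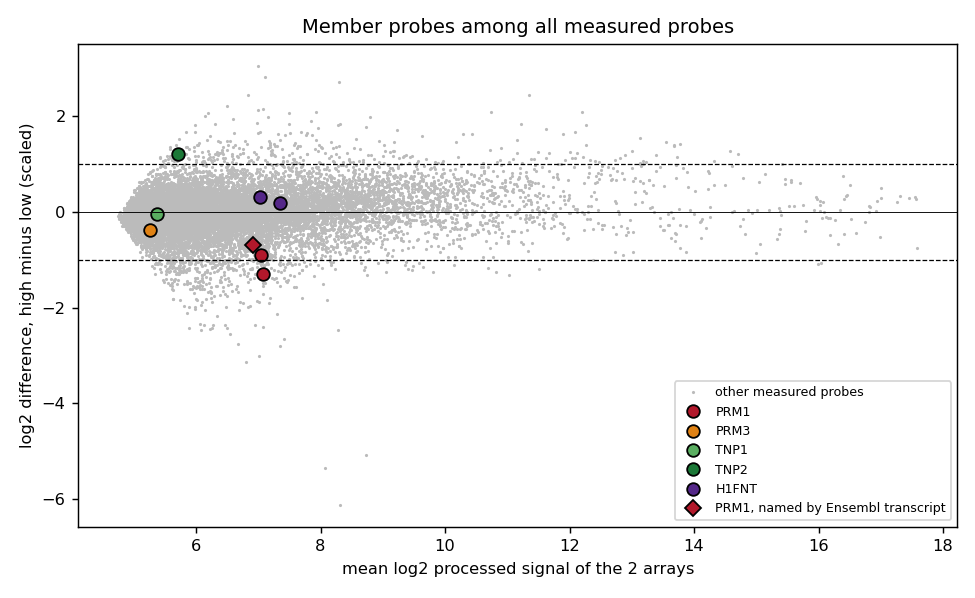
Scaled log2 difference, high-fertile minus low-fertile, against the mean log2 processed signal of both arrays for all 14154 measured probes (grey) and the measured probes of PRM1, PRM3, TNP1, TNP2 and H1FNT (coloured). Dashed lines mark 2-fold. The TNP2 probe lies above the upper line and 1 PRM1 probe below the lower line, with the other PRM1 probe and the PRM1 probe named by its Ensembl transcript (diamond) between 0 and the lower line.

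The genes moved against one another, and that contrast is free of any single scaling factor. The difference of TNP2 exceeded that of PRM1 by 2.32 on the log2 scale, a 4.99-fold change of one relative to the other between the arrays. It was at least 1.31 in each of the 12 alternatives that measured both genes, the lowest value being that with normexp. Several of the 12 could not change it: the median, the 75th percentile of every probe, spike-ins and the matrix values leave it at 2.32 by construction. Of the 12, 1 was chosen after seeing the data, that with probes found by accession. H1FNT exceeded PRM1 by 1.35, TNP2 exceeded H1FNT by 0.97, and PRM3 exceeded PRM1 by 0.72. PRM1 and TNP2 thus changed unequally relative to H1FNT between these arrays, in opposite directions. TNP2 rests here on 1 probe with an error of 0.37. With normexp the values drew closer, with PRM1 at -0.67, H1FNT at 0.16 and TNP2 at 0.64. With PRM1 taken over 3 probes the contrast of TNP2 with PRM1 was 2.18.

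The differences of PRM1 and TNP2 were larger than the spread between repeat spots. The members have 1 spot per probe, so this spread comes from other probes. Over 1841 probes with 2 spots whose signal was below 4 times the lowest well-above-background signal on either array, as it was for PRM1, PRM3, TNP1 and TNP2, the SD of the high-minus-low difference among spots of one probe was 0.33. Over 1197 brighter probes, where H1FNT belongs, it was 0.19. Between overlapping probes of one gene that share at least 40 bases, both measured, the median gap was 0.16 over 238 pairs, and the gap between the 2 PRM1 probes was 0.40. These spreads come from within the same 2 arrays, so they hold no variation between labellings, arrays or bulls. The SD of the log2 difference over all measured genes was 0.46.

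The spots of PRM1 and TNP2 did not lie in areas where the surrounding spots moved as far. Within 5 rows and 5 columns of the TNP2 spot the median scaled difference over 96 spots was -0.23, against 1.22 for the spot itself, and 0 of its 8 adjoining spots were 2-fold higher. Around the PRM1 spots the medians were -0.26 and -0.14, with 1 of 7 and 0 of 8 adjoining spots 2-fold lower. With the local median subtracted from each spot PRM1 stood at -1.01 and TNP2 at 1.33. Around the measured PRM3 spot 3 of 8 adjoining spots were 2-fold lower, with a local median of -0.13.

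Base composition of the measured probes ranged from 41.7% to 60% GC, against a median of 45% over all probes. With the trend of the difference on GC content subtracted PRM1 stood at -1.04 and TNP2 at 1.16. AATAAA, searched on the probe strand, stood in 4 of the 14 probes (1 each of PRM1, PRM2, PRM3 and TNP1) and in 8.35% of all probes on the array. Of all probes with it 30.7% were measured, and of those without it 27.3%. Labelling started from oligo-dT, so probes near the 3′ end of a transcript are reached first. Of the 4 member probes with AATAAA those of PRM1 and PRM3 were measured, and those of PRM2 and TNP1 were not. Sharing 16 bases with a probe of another gene name was found for the measured probes of PRM3 (HIVEP2 and the cluster TC484212), TNP2 (PCYT1B) and the second of H1FNT (SPTY2D1). Both PRM1 probes shared 16 bases only under the Ensembl transcript name that the PRM1 probe found by accession carries. What such stretches add to the signal was not tested.

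In the RefSeq table of assembly ARS-UCD2.0, used for names and order, SOCS1, TNP2, PRM3, PRM2, PRM1 and RMI2 follow one another on chromosome 25. On build Btau_3.1, the build of the array, the first PRM1 probe lies at chr25:10966344-10966403, the PRM2 probe printed above at chr25:10973217-10973276, the PRM3 probes at chr25:10975412-10975471 and the unmeasured TNP2 probe at chr25:10979512-10979571. The array design places the measured TNP2 probe at chr25:10987920-10987973 in the reverse orientation, 8348 bases from the probe it overlaps. It places the second PRM1 probe at chr25:10996747-10996805, also in reverse and 30343 bases from the probe it overlaps. Overlapping sequences thus have separate positions in that design, and the positions of these probes are given as the tables state them. H1FNT lies at chr5:35143526-35143620 over both probes.

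The flanking genes did not share the size of these differences. SOCS1, a cytokine signalling inhibitor next to TNP2, differed by 0.08 (SD 0.09, n = 2 probes). RMI2, a part of a DNA repair complex next to PRM1, differed by -0.40, and CLEC16A, farther away, by 0.57. The other 5 genes listed around the cluster were not measured. Near TNP1 on chromosome 2, IGFBP2 differed by 0.01, and IGFBP5 and TNS1 were not measured. Within one cluster of genes TNP2 stood at 1.22 and PRM1 at -1.10, with PRM3 between them at -0.38.

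Genes that act on the exchange of histones for protamines, or on the mRNA of these genes, were listed by role. Of 51 listed 43 were found on the array and 17 were measured, with a median difference of 0.11 against 0.00 over all genes. Of the 17, 0 were at least 2-fold higher and 1 was at least 2-fold lower (5.88%, against 4.32% of all measured genes). That gene was EPC1, a subunit of the histone acetyltransferase complex that acetylates nucleosomes before their removal. Its measured probe, 1 of 2, had 87.5 ± 9.88 in the high-fertile against 234 ± 24.3 in the low-fertile sample, a difference of -1.09. KAT5, the acetyltransferase of that complex, lay on the other side of 0 at 0.52, as did KAT8, another histone acetyltransferase, at 0.39. PARP1, which acts at DNA breaks, was at 0.23. EPC1 was under 2-fold with the matrix values, with normexp, with scaling on every probe and with no filter on dim probes, where its other probe counts too, and was not called with the stricter limit.

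Among the histones of the exchange the replacement histones H3-3A and H3-3B differed by 0.11 (SD 0.18, n = 3 probes) and -0.39 (SD 0.35, n = 4 probes). The testis histone H2BC1 and HMGB4, a spermatid chromatin protein, were not measured, nor were H2AZ1 and H2AX. HMGB4 was well above background on the high-fertile array only, and the others on neither array. BRDT, the reader of acetylated histones in spermatids, the ubiquitin ligases RNF8 and PHF7 and the proteasome activator PSME4 were not measured either. Of these, PHF7 was well above background on the high-fertile array only. CHD5 was not found by name.

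Of 8 genes for transcription of the protamine and transition protein genes 1 was measured, NR6A1, a nuclear receptor, at 0.20. CREM, the activator of these genes in round spermatids, was not measured, nor were its partner FHL5, TBPL1, TAF7L, RFX2 and SOX30. RFX2 was well above background on the high-fertile array only. Of 10 genes for storage and translation of protamine and transition protein mRNA 6 were measured, between -0.62 and 0.43. YBX2, which holds protamine mRNA in store in spermatids, was at 0.43 and TARBP2, needed in the mouse for its translation, at -0.62. The poly(A)-binding proteins PABPC4 and PABPC1 were at 0.43 and at -0.13 (SD 0.54, n = 3 probes). The RNA-binding protein DAZAP1 was at -0.05, and YBX1, the somatic relative of YBX2, at 0.11 (SD 0.10, n = 3 probes).

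Of 10 kinases, chaperones and thiol enzymes 4 were measured. SRPK1, a kinase that phosphorylates PRM1, was at 0.51, NUP210L, a nuclear pore protein of the testis, at 0.19, the testis kinase TSSK1B at 0.09 and GPX4, whose nuclear form helps to link protamines by disulphide bonds, at -0.29. CAMK4, HSPA2 and TSSK6 were not measured. EPC1 aside, no gene of these roles was 2-fold apart.

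**Figure D3:**
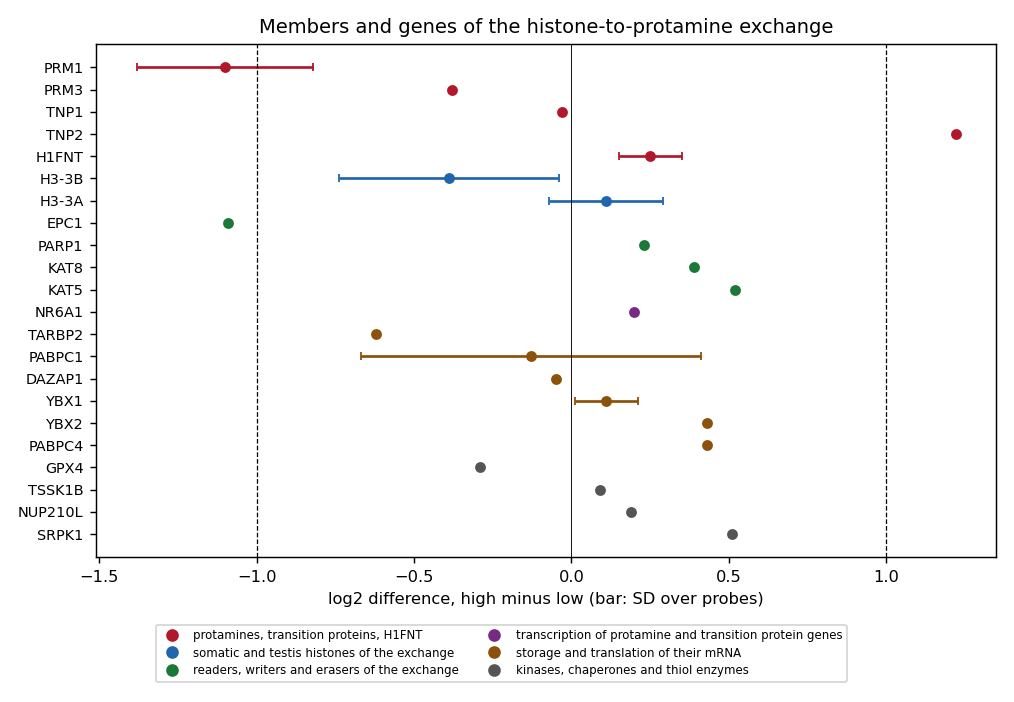
Log2 difference, high-fertile minus low-fertile, of the 5 measured genes of the family and the 17 measured genes of the exchange, by role. Bars are the SD over probes where a gene had more than 1 measured probe, and dashed lines mark 2-fold. PRM1 and EPC1 lie below the lower line and TNP2 above the upper one, with all other genes between -0.62 and 0.52.

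The deposited series matrix holds the log2 processed signals shifted by a constant per array (98.6% of probes match). The matrix therefore keeps the order of the genes by construction. In it PRM1 stood at -0.99, PRM3 at -0.27, TNP1 at 0.07, H1FNT at 0.36 and TNP2 at 1.33. The order from PRM1 through PRM3, TNP1 and H1FNT to TNP2 was seen in each of the settings in the plot of differences by setting where the 5 genes were measured, as its points show. Under the setting of the report, TNP1 lay closer to its neighbours in that order, PRM3 and H1FNT, than its own error of 0.38. Its distance from H1FNT was larger than the error of each H1FNT probe, 0.22.

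**Figure D4:**
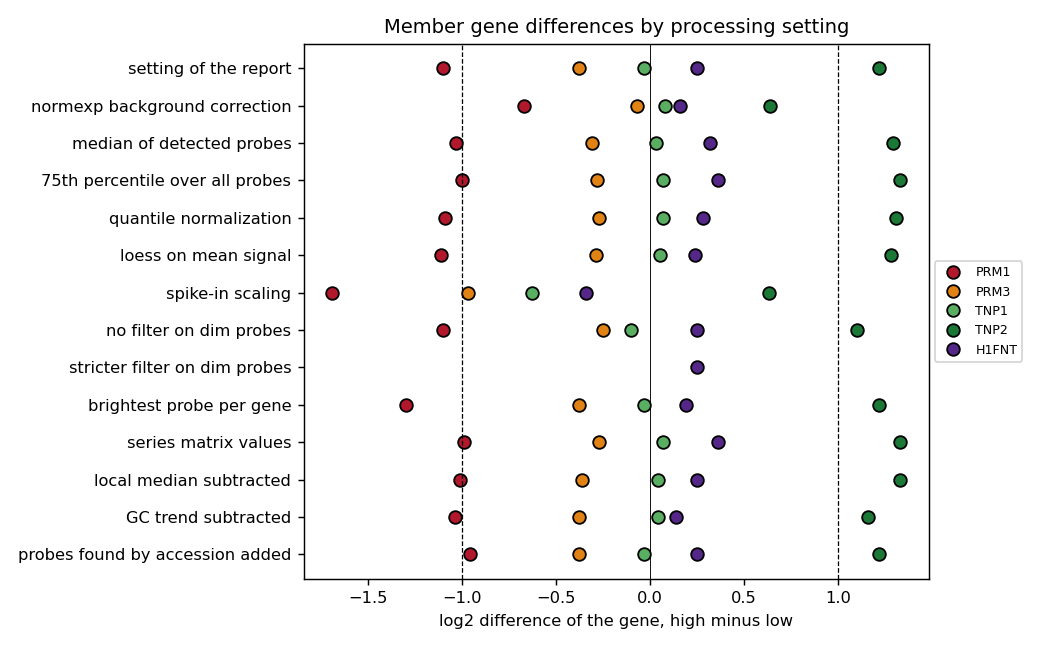
Log2 difference, high-fertile minus low-fertile, of PRM1, PRM3, TNP1, TNP2 and H1FNT under the setting of the report and each alternative. Dashed lines mark 2-fold. With spike-in scaling all 5 genes shift down together, with normexp they draw closer to 0, and with the stricter limit on dim probes H1FNT is the only gene left.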

How the data were processed

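Sperm total RNA was primed with oligo-dT and labelled with Cy3, as the labels say. Spot intensity was deposited as scanner tables. Agilent Feature Extraction 11.5.1.1 wrote them per the file headers, with background subtracted within each array, and probe positions are on build Btau_3.1. The same deposited tables give an error intensity per spot and the mean and background intensities. The deposited series matrix holds log2 values, equal to the log2 processed signals plus -5.12 (high-fertile) and -5.55 (low-fertile) within 0.01 for 98.6% of probes, with column medians of -1.43 and -1.37, so its scale and direction are known from this match.

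Spots of a probe were averaged as log2 values, outlier spots and controls were left out, and each array's 75th percentile over measured probes was subtracted, since only 27.6% of probes were measured. A gene's difference is the mean over its measured probes. The spot errors of both arrays were combined into the error of a difference. Genes were named by accession, symbol or older symbol in the table of assembly ARS-UCD2.0. Of the 14 probes 9 matched it by accession, and 5 of the 6 names by symbol. Named genes were all members, by probe; of the exchange list, genes 2-fold apart, the 2 highest and 2 lowest per role and 10 preset names; and measured neighbours. Any further name was picked with its value in view. The members and lists were chosen with earlier results of these data known. The 12 alternatives used limma 3.58.1 in R 4.3.3, statsmodels 0.14.6 and pandas 2.3.3; 1 more, with probes found by accession, was chosen after seeing the data. The code that computes the difference was checked on simulated data with planted differences, which is no test of the differences reported here. The number of arrays, 1 per group, limits the precision.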

Additional observations from a re-analysis of the deposited data

How the results depend on the processing

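PRM1 stayed below 0 in 12 of 12 alternatives that measured it (-1.69 to -0.67) and was past 2-fold in 8. TNP2 stayed above 0 in 12 of 12 (0.63 to 1.33), past 2-fold in 10. PRM3 was below 0 in 12 of 12 and TNP1 above 0 in 8 of 12. H1FNT was above 0 in 12 of 13.

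With spike-in scaling (7 spike-in probes, 0.27 brighter on the high-fertile array before scaling, SD 0.09) the median of all genes was -0.60, PRM1 was at -1.69, PRM3 at -0.97, TNP1 at -0.63, H1FNT at -0.34 and TNP2 at 0.63. Of all genes 34 were then 2-fold higher and 1771 lower, against 218 and 283. With normexp (offset 50) PRM1 was at -0.67, PRM3 at -0.07, TNP2 at 0.64 and TNP2 minus PRM1 at 1.31, and 73 and 48 of all genes were called. The stricter filter measured 4259 genes (126 higher, 46 lower), no filter 31644 (771 and 1730); PRM1, PRM3, TNP1 and TNP2 have no value under the stricter filter. The 75th percentile over all probes gave 294 and 202, the matrix values 296 and 200.

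The count of 2-fold higher members, 1, became 0 with normexp, spike-ins and the stricter filter. The count of lower members, 1, became 0 with normexp, the stricter filter, the matrix values, the 75th percentile over all probes and probes found by accession. Exchange genes 2-fold lower, 1, became 0 with normexp, the stricter filter, the 75th percentile over all probes or matrix values, and 2 with spike-ins (EPC1, TARBP2) and with no filter (H2BC1, SOX30), where PABPC4 was the 1 gene 2-fold higher. The cause was not tested. No paired analysis was possible because each group has 1 array. No replicate could be left out.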
